A study of Homo sapiens with 4 samples.

Results

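The expression of 10 genes of arginine and polyamine metabolism was compared between the parental prostate cancer line PC-3, here PC3-P, and its bone-metastatic derivative PC3-BM. The genes were ARG1, ARG2, ASS1, ASL, ODC1, AMD1, SRM, SMS, SAT1 and AZIN1. They were chosen by their place in the pathway with earlier results of these arrays known, and ARG2 was picked on its own difference between the lines, so its values are given as a description and without a test. Each gene was represented by a probe set annotated to that gene alone, and where there were several the 1 with the highest mean over the arrays was to be taken. Each of the 10 genes had 1 such probe set, out of 18417 genes represented in this way.

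PC-3 is an established line from a bone metastasis of human prostate cancer, and the labels (PC-3 and PC-3-BM) give it poor metastatic potential and the derivative a high one. PC3-BM is a single line, called a clone or subclone in the study, selected in nude mice by rounds of injection into the heart and recovery of the tumour cells that had reached bone. Both lines carried a luciferase and GFP construct. There were 2 arrays per line. Whether these stand for separate cultures is not stated, and the p-values therefore cover the spread between arrays alone, possibly a technical one. According to the labels the cells grew in mice and according to the methods in culture, and it was not settled here from which of these the RNA came.

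Arginases split arginine into urea and ornithine, ARG1 in the cytosol (best known from liver) and ARG2 in mitochondria. ASS1 and ASL make arginine from citrulline and aspartate. ODC1 turns ornithine into putrescine, and SRM and SMS extend putrescine to spermidine and spermine with aminopropyl groups that AMD1 prepares from S-adenosylmethionine. SAT1 acetylates spermidine and spermine for export or breakdown. Antizymes send ODC1 to degradation, and AZIN1, an inactive relative of ODC1, binds antizymes and so spares it. The prostate is known for making and secreting large amounts of polyamines.

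In PC3-BM, ARG2 was the member with the largest difference, SAT1 rose, and SRM, AZIN1 and ASS1 fell. ODC1, AMD1, SMS, ASL and ARG1 did not pass the test. Rose and fell are used below of an adjusted p below 0.05 in limma, a linear model with moderated variances, with Benjamini-Hochberg adjustment over all 33297 probe sets. Of the 9 members other than ARG2, 1 rose and 3 fell, which is 44.4%, against 23.2% of all probe sets (11.6% rose and 11.6% fell) and 29.6% of genes with 1 probe set each. With 9 members the share is coarse, and nothing particular to these genes is read from it. Their median difference was −0.08 on the log2 scale, against −0.04 over all genes with 1 probe set each and −0.02 over all probe sets. The calls were sensitive to single arrays. Without PC3-P array 1 or PC3-P array 2, 0 of the 9 passed in limma, without PC3-BM array 1 only SRM did and without PC3-BM array 2 SRM and SAT1 did, while 4 had an unadjusted p below 0.05 in each of these fits.

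**Figure D1:**
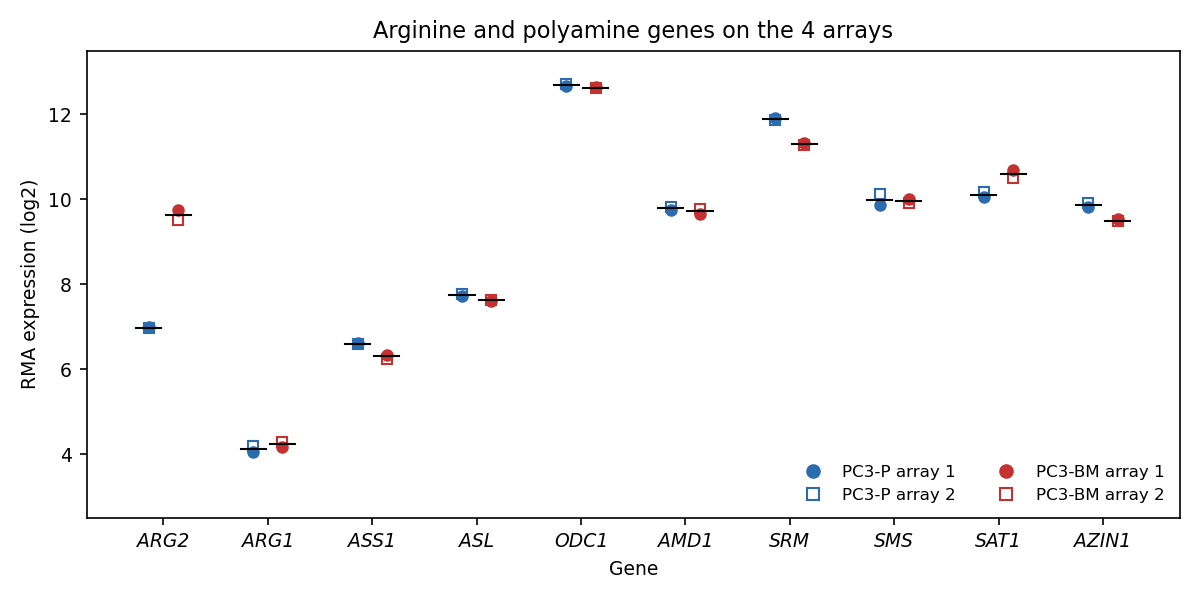
The 10 genes (horizontal axis) on each array, with RMA expression in log2 units on the vertical axis. Blue stands for PC3-P and red for PC3-BM, a filled circle is array 1 and an open square array 2, and a black bar gives the mean of a line. ARG2 stood at 6.99 and 6.97 in PC3-P and at 9.75 and 9.51 in PC3-BM, whereas the other genes moved by less than 1 log2 unit. Heights are comparable between arrays of 1 gene and not between genes.

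The ARG2 and SRM promoters are shown because these genes had the widest difference and the largest fall among the members. Each run is the 250 bases before the gene's start from RefSeq (assembly GRCh38.p14), 5′ to 3′ along the gene. Capitals mark TGACGTCA, the full cAMP response element, in ARG2 and CACGTG, the E-box bound by MYC and MAX, in SRM. The ARG2 window is chr14:67619670-67619919 on the plus strand and the SRM window chr1:11060019-11060268 on the minus strand.
ARG2: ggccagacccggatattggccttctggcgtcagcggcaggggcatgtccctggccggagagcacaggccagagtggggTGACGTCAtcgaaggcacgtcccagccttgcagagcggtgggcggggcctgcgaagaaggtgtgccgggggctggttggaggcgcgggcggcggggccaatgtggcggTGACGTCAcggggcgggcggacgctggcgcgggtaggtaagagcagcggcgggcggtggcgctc
SRM: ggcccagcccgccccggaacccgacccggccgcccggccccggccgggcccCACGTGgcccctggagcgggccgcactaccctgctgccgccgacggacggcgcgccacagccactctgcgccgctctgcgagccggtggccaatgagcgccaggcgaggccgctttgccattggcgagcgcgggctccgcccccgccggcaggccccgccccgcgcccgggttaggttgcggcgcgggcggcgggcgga

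The ARG2 window held TGACGTCA at both −172 to −165 and −64 to −57, counted from the base before the start as −1. Of 35116 such windows, which include alternative starts of the same gene, 1.65% held this motif and 0.0541% held it 2 or more times. The SRM window held CACGTG at −199 to −194, which 6.34% of the windows held. CACGTG also lay in a window of ODC1 (−29 to −24) and in 1 of ASS1 (−71 to −66), each before the more downstream of the starts listed for that gene. These were among 4 motifs searched on both strands, all chosen after the values were known. The others were TATAAA, found in 10.7% of windows and in that of ARG1 alone among the members, and GGGCGG, found in 42.6%. Windows were listed for 9 of the 10 genes. A match is a description of the letters and was not tested as a binding site.

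ARG2, the mitochondrial arginase, had log2 values of 6.99 and 6.97 in PC3-P and of 9.75 and 9.51 in PC3-BM. Both PC3-BM arrays lay far above both PC3-P arrays, and the PC3-BM arrays differed more from each other than the PC3-P arrays did. The means were 6.98 ± 0.01 and 9.63 ± 0.17 (SD, n = 2), and the difference was 2.65 (SE 0.10), or 6.28-fold. Of all probe sets, 24 showed a higher gain. The difference was between 2.53 and 2.77 with any 1 array left out. It was 2.69 with the arrays centred on their medians.

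ARG1, the cytosolic arginase, was dim on all arrays. Its log2 values were 4.06 and 4.20 in PC3-P and 4.17 and 4.29 in PC3-BM, so the lines overlapped. All 4 lay below the lower quartile of the probe set means (5.03). The difference was 0.10 (SE 0.09, 95% interval −0.13 to 0.33, limma adjusted p = 0.481).

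ARG2 lies next to VTI1B, a SNARE gene, on the opposite strand of chromosome 14, and in RefSeq the ends of these genes overlap. The platform annotation gives the ARG2 probe set to ARG2 alone, whereas the study's own annotation gave it to ARG2 and VTI1B together. Whether its probes tell the strands apart was not tested. The probe set of VTI1B alone had log2 values of 10.33 and 10.40 in PC3-P and 10.09 on both PC3-BM arrays, which lay below both PC3-P arrays. That difference was −0.27 (SE 0.07, 95% interval −0.46 to −0.09, limma adjusted p = 0.0521), so it did not pass. Over the alternatives the adjusted p ran from 0.0136 to 0.198. It was below the threshold with a variance trend and among probe sets with 1 gene symbol or with a mean above 5 or 6, and above it with the arrays centred or quantile-normalised again, with the replicate block and without any 1 array.

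Only 0.108% of all probe sets had a larger absolute difference than ARG2, which was picked for it. Like most genes, the other neighbours were thus nearer to 0 than ARG2. On its far side from VTI1B, PIGH, of glycosylphosphatidylinositol anchor synthesis, differed by −0.22 (SE 0.07, limma adjusted p = 0.0904), PLEKHH1 fell by 0.64 (SE 0.11, limma adjusted p = 0.019) and TMEM229B differed by −0.03 (SE 0.09, limma adjusted p = 0.851). Beyond VTI1B, the retinol dehydrogenase RDH11 rose by 0.41 (SE 0.07, limma adjusted p = 0.0159) and RDH12 differed by 0.26 (SE 0.10, limma adjusted p = 0.126). Among these 6 neighbours the differences thus ran from −0.64 to 0.41 on the log2 scale.

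**Figure D2:**
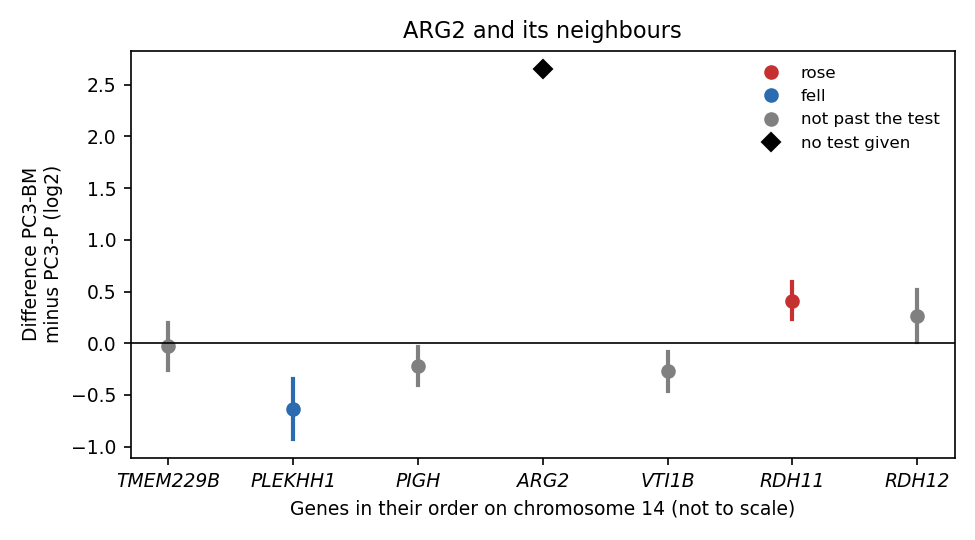
Difference PC3-BM minus PC3-P (log2, vertical axis) of ARG2 and the 3 nearest genes with a probe set of their own on each side, in their order on chromosome 14 (horizontal axis, not to scale). Bars are 95% intervals of limma, red marks genes that rose, blue genes that fell and grey genes that did not pass, and the black diamond is ARG2, shown without an interval. ARG2 stands at 2.65 and its neighbours between −0.64 and 0.41.

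The genes whose centred profile over the 4 arrays was nearest to that of ARG2 were NETO1, MOXD1, PAMR1, GALNT3 and PCDHB16. Likeness was the root mean square difference between profiles, each centred on its own mean, and it ran from 0.040 log2 units for NETO1 through 0.073 for MOXD1, 0.081 for PAMR1 and 0.096 for GALNT3 to 0.097 for PCDHB16. NETO1, an auxiliary subunit of glutamate receptors, had log2 values of 6.29 and 6.36 in PC3-P and 9.04 and 8.86 in PC3-BM. As for ARG2, its PC3-BM array 1 was above its PC3-BM array 2. With 4 arrays in 2 lines, such likeness mostly restates the size of the difference, which was 2.63 (SE 0.09) for NETO1.

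ASS1, which condenses citrulline with aspartate and limits the rate of arginine synthesis, fell. Its log2 values were 6.62 and 6.59 in PC3-P and 6.34 and 6.25 in PC3-BM, and both PC3-BM arrays lay below both PC3-P arrays. The means were 6.60 ± 0.02 and 6.30 ± 0.06 (SD, n = 2), and the difference was −0.30 (SE 0.07, limma adjusted p = 0.0425). This call was the least firm of the 4. It was lost with the arrays centred on their medians (adjusted p = 0.0704), quantile-normalised again (0.0575), with a variance trend (0.0576), with the replicate number as a block (0.0705) and without any 1 array (0.0979 to 0.166).

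ASL, which releases arginine from argininosuccinate, was at 7.72 and 7.76 in PC3-P and at 7.61 and 7.63 in PC3-BM. The arrays of the lines did not overlap, with PC3-BM lower. The difference was −0.12 (SE 0.07, 95% interval −0.29 to 0.06, limma adjusted p = 0.285).

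ODC1, which commits ornithine to the polyamines, had log2 values of 12.67 and 12.72 in PC3-P and of 12.64 and 12.62 in PC3-BM. Both PC3-BM arrays lay below both PC3-P arrays, by a small step. The difference was −0.07 (SE 0.07, 95% interval −0.24 to 0.11, limma adjusted p = 0.55), so the interval spans 0.

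AMD1, which supplies the aminopropyl donor, was at 9.76 and 9.82 in PC3-P and at 9.66 and 9.77 in PC3-BM. The lines overlapped, with a difference of −0.08 (SE 0.08, 95% interval −0.28 to 0.13, limma adjusted p = 0.544).

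SRM, spermidine synthase, had the largest fall among the members. Its log2 values were 11.92 and 11.88 in PC3-P and 11.32 and 11.29 in PC3-BM. Both arrays of each line lay within 0.04 of each other, and the lines were well apart. The means were 11.90 ± 0.03 and 11.31 ± 0.02 (SD, n = 2), and the difference was −0.59 (SE 0.07, limma adjusted p = 0.00663). The adjusted p was 0.0533 without PC3-P array 1 and 0.0507 without PC3-P array 2, with differences of −0.57 and −0.61, and the call held without either PC3-BM array (0.0406 and 0.0405).

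SMS, spermine synthase, showed no difference in a fixed direction. Its log2 values were 9.86 and 10.12 in PC3-P. In PC3-BM array 2 was at 9.92 and array 1 slightly higher, with a mean of 9.96 ± 0.06 (SD, n = 2), so both PC3-BM arrays lay between the PC3-P arrays. The difference was −0.03 (SE 0.11, 95% interval −0.31 to 0.26, limma adjusted p = 0.893). It turned to 0.01 with the arrays centred on their medians and to 0.10 without PC3-P array 2. SRM and SMS, the paired aminopropyl transferases, were thus not alike in size of difference, although the gap between them was not tested.

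**Figure D3:**
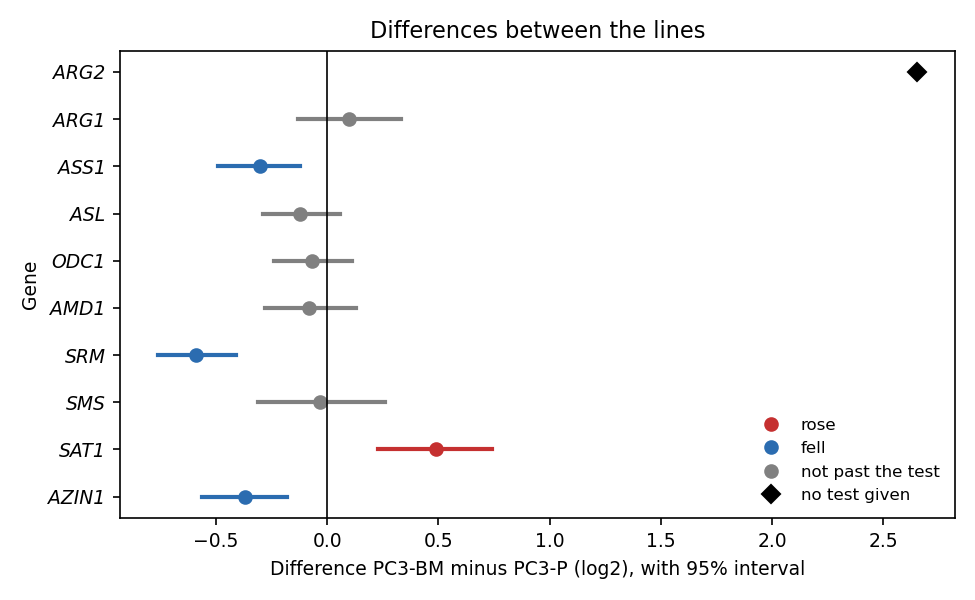
Log2 difference between the lines, PC3-BM minus PC3-P (horizontal axis), of the 10 genes (vertical axis), with 95% intervals of limma as bars. Red marks SAT1, which rose, blue marks genes that fell, grey marks genes that did not pass, and the black diamond is ARG2, shown without an interval. SRM stands at −0.59 and SAT1 at 0.49, and the intervals of ARG1, ASL, ODC1, AMD1 and SMS cross 0.

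SAT1, the spermidine and spermine acetyltransferase, was the only one of the 9 tested members that rose. Its log2 values were 10.05 and 10.17 in PC3-P and 10.69 and 10.50 in PC3-BM. Both PC3-BM arrays lay above both PC3-P arrays. The means were 10.11 ± 0.09 and 10.60 ± 0.13 (SD, n = 2), and the difference was 0.49 (SE 0.10, limma adjusted p = 0.0273) or 1.40-fold. The adjusted p was 0.133 without PC3-P array 1, 0.0902 without PC3-P array 2 and 0.105 without PC3-BM array 1, with differences of 0.42, 0.55 and 0.39.

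AZIN1, the antizyme inhibitor, fell. Its log2 values were 9.83 and 9.91 in PC3-P and 9.53 and 9.48 in PC3-BM, without overlap. The means were 9.87 ± 0.05 and 9.50 ± 0.04 (SD, n = 2), and the difference was −0.37 (SE 0.07, limma adjusted p = 0.0256). The call was lost with the replicate number as a block (adjusted p = 0.052) and without any 1 array (0.0872 to 0.126). All differences in these fits lay between −0.41 and −0.33.

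Further genes of the pathway moved in both directions. Of 47 such genes with a probe set of their own, out of 49 listed by role, 7 rose and 9 fell, or 34.0%, against the 29.6% of all genes given above. Their median difference was −0.03, against −0.04 over all genes with 1 probe set each. The count of 16 became 5 without PC3-P array 1 and 3 without PC3-P array 2, and it became 6 and 7 without the first and the second array of PC3-BM. AGMAT, PYCR3 and SMOX passed in all of these fits, and 8 of the 16 passed in none of them.

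Among 12 other genes listed as arginine and urea cycle enzymes, 2 rose and 1 fell. The share that passed was below the 29.6% of all genes, and nothing particular to this role is read from it. AGMAT, annotated as an agmatinase that would make putrescine from agmatine, had log2 values of 7.85 and 7.83 in PC3-P and of 6.59 and 6.67 in PC3-BM. This was the largest difference among the further genes, a fall by 1.21 (SE 0.07, limma adjusted p = 0.00192). DDAH1, which clears the nitric oxide synthase inhibitor dimethylarginine, rose by 0.59 (SE 0.07, limma adjusted p = 0.00681). AZIN2, once annotated as an arginine decarboxylase and known as an antizyme inhibitor related to AZIN1, rose by 0.45 (SE 0.11, limma adjusted p = 0.0433), the opposite direction from AZIN1. DDAH1 lost its call without either PC3-P array (adjusted p = 0.0538 and 0.0554), and AZIN2 did without PC3-P array 1, PC3-P array 2 or PC3-BM array 1 (0.144, 0.178 and 0.121).

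Of 9 carriers of arginine and ornithine, 2 rose and 2 fell, or 44.4% against 29.6% of all genes. With 9 genes the share is coarse, and nothing particular to this role is read from it. SLC7A1, the main cationic amino acid transporter of the plasma membrane, rose by 0.49 (SE 0.08, limma adjusted p = 0.0149) and SLC7A6, which exchanges cationic for neutral amino acids, by 0.52 (SE 0.08, limma adjusted p = 0.013). SLC25A15, the mitochondrial ornithine carrier, fell by 0.47 (SE 0.08, limma adjusted p = 0.0177). The fourth was the cationic amino acid transporter SLC7A2, named after its value was seen, which fell by 0.38 (SE 0.07, limma adjusted p = 0.0191). All 4 lost their calls without any 1 array.

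Of 6 measured enzymes between ornithine, glutamate and proline, 2 rose and 1 fell, or 50.0% against 29.6% of all genes. A share of 6 genes is too coarse for anything to be read from it. OAT, which converts ornithine to the proline and glutamate precursor in mitochondria, had log2 values of 8.98 and 9.06 in PC3-P and of 9.54 and 9.49 in PC3-BM. It rose by 0.49 (SE 0.07, limma adjusted p = 0.0122). ALDH18A1, which makes that precursor from glutamate, rose by 0.48 (SE 0.07, limma adjusted p = 0.0126). PYCR3, a cytosolic pyrroline-5-carboxylate reductase, fell by 0.80 (SE 0.08, limma adjusted p = 0.00463). OAT lost its call without any 1 array (adjusted p = 0.0517 to 0.0763), and ALDH18A1 without PC3-P array 1, PC3-P array 2 or PC3-BM array 1 (0.0773, 0.0776 and 0.0649).

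Of 8 genes of the methionine cycle and of methylthioadenosine salvage, 3 fell and 0 rose in limma, and 3 had an unadjusted p below 0.05. The share that passed was 37.5%, near the 29.6% of all genes, and nothing particular to this role is read from it. MTAP, which recycles the methylthioadenosine left by SRM and SMS, had log2 values of 8.34 and 8.35 in PC3-P and of 7.72 and 7.75 in PC3-BM. It fell by 0.61 (SE 0.07, limma adjusted p = 0.0058) and kept its call except without PC3-P array 2 (adjusted p = 0.051). ENOPH1, a later enzyme of that salvage route, fell by 0.39 (SE 0.07, limma adjusted p = 0.0206). MAT2A, which makes S-adenosylmethionine, fell by 0.38 (SE 0.07, limma adjusted p = 0.0241). ENOPH1 (adjusted p = 0.0721 to 0.109) and MAT2A (0.0656 to 0.12) lost their calls without any 1 array.

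**Figure D4:**
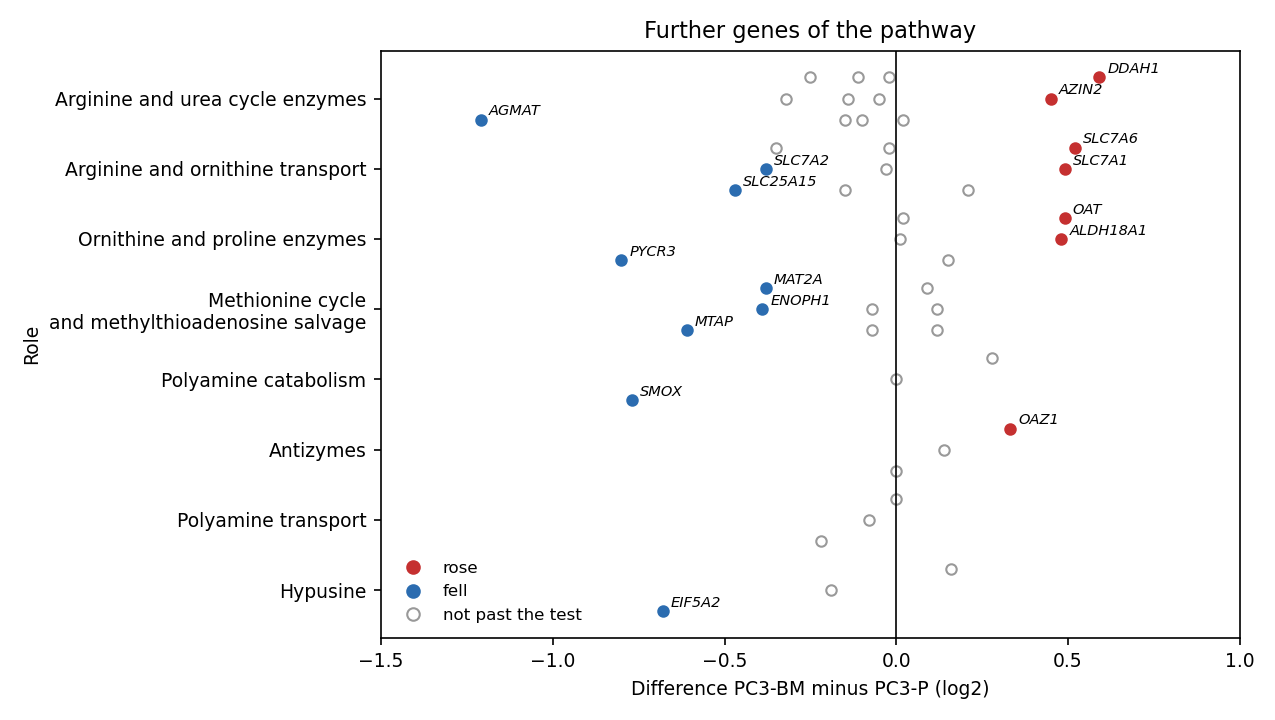
Log2 difference between the lines, PC3-BM minus PC3-P (horizontal axis), of 47 further genes of the pathway, grouped by role (vertical axis). Each circle is a gene, filled red where it rose, filled blue where it fell and open grey where it did not pass, and the vertical spread within a role only separates circles. AGMAT lies farthest to the left at −1.21 and DDAH1 farthest to the right at 0.59.

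Among 3 other genes of polyamine breakdown, 1 fell, or 33.3% against 29.6% of all genes, and nothing is read from that share. SMOX, spermine oxidase, had log2 values of 9.15 and 9.10 in PC3-P and of 8.38 and 8.34 in PC3-BM, and it fell by 0.77 (SE 0.07, limma adjusted p = 0.00404). SMOX and SAT1, which both act on spermine, therefore moved in opposite directions. Of 3 antizymes, again 33.3%, OAZ1 alone passed. It rose by 0.33 (SE 0.07, limma adjusted p = 0.0291) from values of 12.41 and 12.36 to 12.73 and 12.71, and lost its call with the replicate block (adjusted p = 0.0573) and without any 1 array (0.0963 to 0.135). OAZ1 is controlled through a ribosomal frameshift, which arrays do not measure.

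None of the 3 polyamine transport genes passed in limma, against 29.6% of all genes, and with 3 genes nothing is read from that. An unadjusted limma p below 0.05 was found for 12130 of all 33297 probe sets and for 1 of these 3 genes. This was the polyamine transporter ATP13A3, with a difference of −0.22 (SE 0.07, limma adjusted p = 0.0813), for which the adjusted p ran from 0.0209 with a variance trend to 0.241 without PC3-P array 2. Of 3 measured genes of hypusine, the modification that spermidine donates to the translation factor eIF5A, 1 fell. That is 33.3%, near the 29.6% of all genes, and nothing is read from it. The gene EIF5A itself had no probe set annotated to it alone and was not analysed. The fall was in EIF5A2, an eIF5A isoform, by 0.68 (SE 0.09, limma adjusted p = 0.00993). Its call was lost without PC3-P array 2 (adjusted p = 0.0576) and without PC3-BM array 2 (0.053).

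The labelled cell type was checked on marker genes. Of 5 epithelial markers 4 fell in PC3-BM, where 29.6% of all genes passed in either direction, and their mean log2 level was 9.13 and 9.08 in PC3-P and 8.25 and 8.33 in PC3-BM. KRT8 fell by 2.03 (SE 0.10) and EPCAM by 1.30 (SE 0.09). The prostate kallikreins KLK3 and KLK2, which PC-3 is known to lack, had probe set means of 5.83 and 5.91. The mean log2 level of 8 blood and marrow markers was 5.79 and 5.76 in PC3-P and 5.82 and 5.85 in PC3-BM, and of these only CD68, a lysosomal protein, rose (0.72, limma adjusted p = 0.00519), while 4 lay below the lower quartile. Of 4 stromal markers only COL1A1 rose (0.68), while COL1A2, ACTA2 and PDGFRB differed by −0.11, −0.06 and 0.01 and did not pass. Of 3 endothelial markers only PECAM1 rose (0.45), while CDH5 and VWF differed by −0.06 and −0.24 and did not pass. The median differences of the stromal and endothelial lists were −0.02 and −0.06. With 29.6% of all genes passing, 1 of 4 and 1 of 3 are too coarse for a stromal or endothelial shift to be read. The part of the marker shifts in the differences above was not tested. In a bulk sample, fewer cells of a type and less RNA per cell cannot be told apart.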

How the data were processed

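The samples were 2 arrays of PC3-P and 2 of PC3-BM, grouped by the labels. Per the labels and methods, total RNA was labelled and hybridised to Affymetrix Human Gene 1.0 ST arrays, and the authors deposited log2 values from robust multichip averaging (RMA), that is background correction, quantile normalisation and 1 summary value per probe set. Limma 3.24 and R 3.2 are named in the processing notes of the submitters. The genome build is not given in the sources used here. The 33297 probe sets and 4 columns were used as deposited, with array medians of 6.66 to 6.72, and the number of arrays limits the precision. RMA gives no detection call and hides a shift of all transcripts.

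Probe sets were named from the platform annotation, in which 19460 had 1 symbol, 1754 several and 12083 none. The fit was limma 3.58.1 in R 4.3.3 on group means with empirical Bayes moderation (2 residual and 2.88 prior degrees of freedom), Benjamini-Hochberg adjustment over all probe sets and a threshold of 0.05. The script was tested on simulated data with differences larger than those of the tested members. Far fewer probe sets were changed there than passed here, so those runs do not check the calls of the members. An exact permutation test of 2 against 2 arrays, two-sided, cannot go below 0.333. Members and gene lists were chosen with earlier results of these data known. Named genes were the members, up to 3 passing genes with the largest difference per role (or the brightest where none passed), the 3 neighbours on each side of ARG2 and the 5 profiles nearest to it. Listed genes without a probe set of 1 symbol were not analysed here. Alternatives were other scalings, filters at a mean of 5 and 6, 1-symbol probe sets, a variance trend, a replicate block, each array left out, averaged probe sets and the study's thresholds (adjusted p below 0.001, absolute log2 difference above 2).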

Additional observations from a re-analysis of the deposited data

How the results depend on the processing

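ARG2 had a difference of 2.53 to 2.77 under every alternative run. Across all probe sets, 7717 passed in the reported fit, 17 at the study's thresholds and 2238 to 3854 with 1 array left out. Among the 9 members other than ARG2, the count of 4 became 0 at the study's thresholds, 2 with the replicate block and 0 to 2 with 1 array left out. Among the 47 further genes, the count of 16 became 0 at the study's thresholds and 3 to 7 with 1 array left out, although 21 had an unadjusted p below 0.05 in the reported limma fit. SMS, which did not pass, turned to 0.01 with the arrays centred on their medians and ran from −0.16 to 0.10 with 1 array left out. Deviations of same-numbered arrays correlated at −0.02, so no pairing by replicate number was seen over the probe sets as a whole. A batch shared by part of the probe sets was not tested. With the replicate block 6473 probe sets and 15 of the further genes passed. Where 1 array was left out, the lone array of a line was assumed to vary like the others, and causes of lost calls beyond the smaller number of arrays were not tested. Among the members and further genes only DDAH2 had several probe sets of its own, and averaging them changed neither count.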
